A study of Mus musculus with 18 samples.

Results

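Trh, Pglyrp1, Grsf1, Ubxn2a, Cobl, Tubb2b, Pdgfa, Alox15, Upp1 and Fut9 are 10 of the 49671 genes counted, chosen by RNA levels far higher in mouse ES cells cultured with a Gsk3 inhibitor than without it. The values used were those of wild-type cultures with CH and 2i set against DMSO and Fgf2/Activin, so these contrasts are described here without a test. Other differences are tested: the effect of adding the Mek inhibitor to CH, and the difference between the 2 cultures without a Gsk3 inhibitor. Both use the wild-type samples that chose the genes, so they are not independent of the choice. The loss of Esrrb is tested in a separate ES cell line, in samples outside the contrasts that chose the genes.

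RNA was sequenced from 18 samples, 3 in each of 6 groups, all grown as clumps in growth factor-depleted Matrigel in N2B27 medium and all kept before that in 2i with Lif. Wild-type E14 ES cells (passage 20, strain given as 12910la) were cultured for 48 h with DMSO (the solvent control), with 3 µM CHIR99021 (CH), with 3 µM CHIR99021 and 0.4 µM PD0325901 (2i), or with Fgf2 at 12 ng/ml plus Activin A, the latter at 20 ng/ml. Esrrb fl/fl ES cells (passage 25, strain given as Acr-EGFP transgenic mice) express a tamoxifen-inducible Cre and were cultured for 24 h in CH, either directly (Esrrb floxed) or after 1 day of 4OHT to delete Esrrb (Esrrb null). The floxed line is a single line and received 4OHT only in the null group, so an effect of 4OHT itself cannot be told apart from the deletion. Nothing in the labels says that the 3 samples of a group came from separate cultures, and p-values then measure only the spread between these samples.

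CHIR99021 blocks the kinase Gsk3, which otherwise marks β-catenin for destruction, and the stabilised β-catenin relieves the repression that Tcf3 exerts on genes of naive pluripotency. PD0325901 blocks Mek and so the Fgf/Erk signals that drive ES cells out of the naive state. Esrrb is an orphan nuclear receptor, a target of this β-catenin and Tcf3 switch, and one of the factors that hold ES cells in the naive state. The 10 genes do not form one pathway. Trh, Pdgfa and Pglyrp1 encode secreted products, Cobl and Tubb2b parts of the cytoskeleton, Upp1, Fut9 and Alox15 enzymes, and Grsf1 and Ubxn2a factors that handle RNA and protein.

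The stretches just before the start sites of 4 of the genes are printed because they show how far the CpG content differs among genes chosen for the same contrast between cultures. They are RefSeq windows of GRCm38.p6, 250 bases up to the start site, 5′ to 3′ on the gene's strand, with CpG dinucleotides in capitals. The Pglyrp1 window lies inside the GENCODE gene, whose outermost annotated start is further upstream, and the other 3 lie just outside theirs.
Trh, chr6:92244651-92244900, minus strand: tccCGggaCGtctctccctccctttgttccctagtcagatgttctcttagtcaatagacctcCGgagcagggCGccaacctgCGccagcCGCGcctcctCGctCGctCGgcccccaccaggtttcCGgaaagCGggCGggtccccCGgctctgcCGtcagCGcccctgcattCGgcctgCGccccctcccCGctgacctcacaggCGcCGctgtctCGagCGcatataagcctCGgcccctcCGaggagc
Cobl, chr11:12464961-12465210, minus strand: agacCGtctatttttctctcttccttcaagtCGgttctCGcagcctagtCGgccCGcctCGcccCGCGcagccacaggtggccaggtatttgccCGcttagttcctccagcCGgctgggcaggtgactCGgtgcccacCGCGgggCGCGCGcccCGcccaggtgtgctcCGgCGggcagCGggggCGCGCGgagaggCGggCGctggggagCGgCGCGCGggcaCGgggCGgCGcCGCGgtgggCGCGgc
Pglyrp1, chr7:18884440-18884689, plus strand: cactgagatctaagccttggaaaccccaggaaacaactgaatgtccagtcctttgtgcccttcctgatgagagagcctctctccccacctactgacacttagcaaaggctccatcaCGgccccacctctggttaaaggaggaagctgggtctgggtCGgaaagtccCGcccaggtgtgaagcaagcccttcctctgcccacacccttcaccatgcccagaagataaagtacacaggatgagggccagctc
Upp1, chr11:9117758-9118007, plus strand: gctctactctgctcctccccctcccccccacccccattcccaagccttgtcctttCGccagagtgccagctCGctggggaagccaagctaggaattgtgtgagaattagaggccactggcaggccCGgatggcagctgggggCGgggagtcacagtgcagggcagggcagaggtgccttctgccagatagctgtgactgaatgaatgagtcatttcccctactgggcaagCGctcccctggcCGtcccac

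The 250 bases before Cobl held 36 CpG and those before Trh 25, against 6 before Upp1 and 3 before Pglyrp1. RefSeq windows of 300 bases, which add the first 50 bases of the transcript, were at hand for 12 start sites of 7 of the 10 genes, all but Tubb2b, Alox15 and Fut9. Over 32851 such windows of all genes the median was 7 CpG, with quartiles of 3 and 20. Ubxn2a had 56, both windows of Grsf1 had 31 and 48, and both of Pdgfa had 24 and 37, all above the upper quartile. The 3 windows of Upp1 had 7, 8 and 13 CpG and that of Pglyrp1 had 5, all between the quartiles, while a second, internal start of Cobl had none. The letters AAGGTCA (bound by oestrogen-related receptors such as Esrrb), CTTTGAT (bound by Tcf/Lef factors) and TTCNNNGAA (bound by Stat factors) were searched on both strands. None of the 12 windows held any of them, and 4.72%, 3.73% and 8.30% of all windows did. This says only that these letters are not in these windows.

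Total counts per sample were 25388139 to 37158661 in the wild-type cultures and 19915222 to 20140699 with Esrrb fl/fl. In every group replicate 1 stood apart from replicates 2 and 3. A chi-square statistic per gene between replicate 1 and the others was 29.7 to 65.9 in the wild-type groups and 11.8 to 15.6 in the Esrrb fl/fl groups, against 2.86 to 8.57 and 1.46 to 2.22 between replicates 2 and 3. Calls were therefore also made without replicate 1 of every group, an alternative chosen after seeing the data, and are given below where they differ. All 5 general pluripotency markers and all 11 naive markers had counts in every group, and each of the 11 naive markers was higher in all 6 samples with CH or 2i than in all 6 with DMSO or Fgf2/Activin. Esrrb itself, the deleted gene, had 138, 108 and 107 CPM (counts scaled to the library total) in Esrrb floxed and 58.1, 63.2 and 59.3 CPM in Esrrb null cells. Its RNA thus fell by 0.99 on the log2 scale (SE 0.10, edgeR adjusted p = 7.44e-05) without being lost, and counts over the whole gene include whatever RNA lacks only the deleted part.

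All values below are CPM after one TMM scaling over the 18 samples, and log2 fold changes are edgeR's with their standard errors (SE). A gene was called, that is said to have risen or fallen, at a Benjamini-Hochberg adjusted p under 0.01 over all genes tested together with a log2 fold change beyond 1 in size. All 10 genes passed the filter on low counts in both fits, Pglyrp1 in the wild-type fit only through its CH and 2i samples. In bulk RNA, fewer cells expressing a gene and less RNA per cell cannot be told apart.

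The contrast that chose the genes held for 9 of the 10 in every pairing of groups, with all 3 CH or 2i samples above all 3 DMSO or Fgf2/Activin samples. Of all genes tested, 25.4% did so in CH against DMSO, 27.9% in CH against Fgf2/Activin, 29% in 2i against DMSO and 31.4% in 2i against Fgf2/Activin. Mean levels in CH were 46.3 times those in DMSO for Trh, 27.96 times for Alox15, 13.9 for Pdgfa, 13.4 for Cobl, 10.2 for Grsf1, 4.99 for Ubxn2a, 4.07 for Fut9, 3.68 for Upp1 and 2.98 for Tubb2b. Pglyrp1 had 3, 3 and 2 counts in the DMSO samples and 2360, 1907 and 1581 in CH, a ratio of 830 with a 95% interval of 421 to 1924 that covers counting error only. The weakest pairing among those that still held was Upp1 in CH against Fgf2/Activin, with a log2 difference of 0.99 (SE 0.30). The exception was Alox15 in 2i, at 7.09, 5.32 and 4.32 CPM, which overlapped DMSO at 3.30, 4.55 and 4.91 CPM. Alox15 was thus high in CH alone and goes against the description of a marker shared by CH and 2i. For 8 genes the fitted log2 difference was above 1 in all 4 pairings of CH or 2i with DMSO or Fgf2/Activin. The share of all 16413 tested genes called higher in all 4, which needs the adjusted p as well as the fold, was 4.73%. Nothing is read from these numbers, because these contrasts chose the genes.

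**Figure D1:**
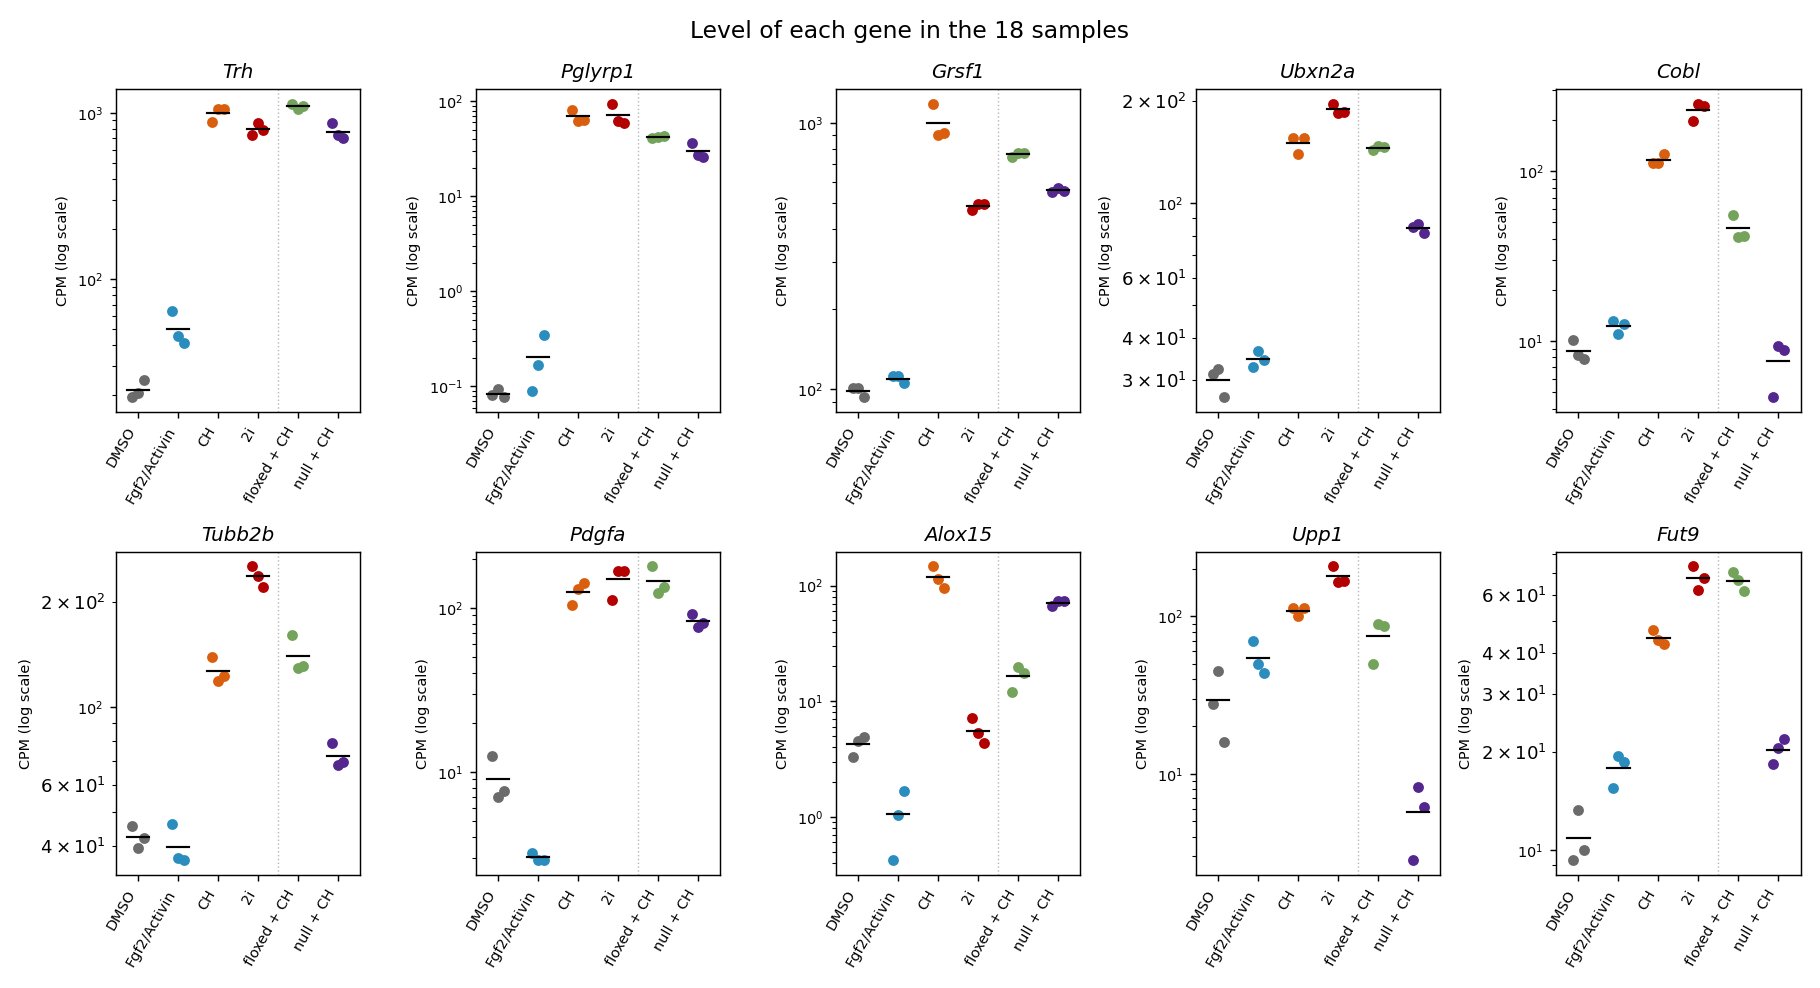
Level of each of the 10 genes in CPM (log axis, a different range in each panel) in the 18 samples. Points are single samples in the order of their replicate numbers, bars are group means, and the dotted line parts the wild-type E14 cultures (48 h) from the Esrrb fl/fl cells in CH (24 h). Alox15 in 2i lies at its DMSO level, and Cobl and Upp1 in Esrrb null cells lie near or below theirs.

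The plot of each gene's level shows Upp1, Cobl and Fut9 low in Esrrb null cells and Alox15 low in 2i. Per kilobase of exon, the levels in CH ran from 3.20 CPM for Fut9 and 14.4 for Cobl to 330 for Grsf1 and 719 for Trh.

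With the Mek inhibitor added to CH, 2 of the 10 genes fell, Alox15 and Grsf1, and none rose. Among all 16413 genes tested, 1.67% fell and 0.317% rose. At an unadjusted p under 0.05 in edgeR, 5 of the genes were higher and 2 lower. The share of all genes at that threshold was not counted, so nothing is read from these numbers. DESeq2 called the same numbers as edgeR, none higher and 2 lower. The 3 samples of 2i lay above all 3 of CH for 5 genes (Ubxn2a, Cobl, Tubb2b, Upp1, Fut9) and below them for 3 (Alox15, Grsf1, Trh), where 12.7% and 13.1% of all genes did so. The median log2 fold change was 0.29 over the 10 genes and -0.003 over all genes.

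With Esrrb deleted, 3 of the 10 genes fell, Upp1, Cobl and Fut9, and 1 rose, Alox15. Among the 14893 genes tested in these cells, 3.87% fell and 12.8% rose. All 3 null samples lay below all 3 floxed samples for 9 of the 10 genes and above them for Alox15, against 30.5% and 35.3% of all genes. The median log2 fold change was -0.82 over the 10 genes and 0.002 over all genes. All 9 genes that were lower had an adjusted p under 0.01, but in 6 of them the log2 fold change was smaller than 1, so they were not called. By adjusted p alone, 2957 of the 14893 genes tested were lower and 3664 higher. For Pglyrp1 the adjusted p rose to as much as 0.0251 when single samples were left out. Pluripotency markers were lower in part as well. All 3 null samples lay below all 3 floxed samples for 7 of the 11 naive and for all 5 general markers. The summed CPM of the 11 naive markers was 894 to 1122 in floxed and 512 to 578 in null cells (3 of 11 called lower), and that of the 5 general markers 2787 to 2879 and 1751 to 1902 (1 of 5 called lower). The 4 neural markers were also all below floxed in null cells, with sums of 16.7 to 27.5 and 6.35 to 8.73 CPM (2 of 3 tested called lower). Most of these sums was the tubulin gene Tubb3, with means of 16.7 CPM in floxed and 5.73 CPM in null cells. The sum of 6 formative and primed epiblast markers was 1056 to 1479 in floxed and 709 to 1054 in null cells (1 called higher, 1 lower). That of 5 apical and lumen markers was 306 to 404 and 405 to 437 (2 of 5 called higher). The part of these marker lists in the changes of the 10 genes was not tested.

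Between Fgf2/Activin and DMSO, the 2 cultures without a Gsk3 inhibitor, Trh rose and Pdgfa fell in Fgf2/Activin. Over all genes 0.902% rose and 0.347% fell. The samples of Fgf2/Activin lay above those of DMSO for 5 genes and below them for 2, against 12.4% and 11.7% of all genes. The median log2 fold change was 0.18 over 9 genes, leaving out Pglyrp1 with its 2 to 10 counts per sample, and -0.021 over all genes. Beside Alox15 and Fut9, the nearest to a call and given below, the differences that did not pass were 0.87 for Upp1 (SE 0.30, adjusted p = 0.155), 0.47 for Cobl (SE 0.12, adjusted p = 0.0573), 0.18 for Ubxn2a (adjusted p = 0.285), 0.14 for Grsf1 (adjusted p = 0.517) and -0.10 for Tubb2b (adjusted p = 0.708).

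**Figure D2:**
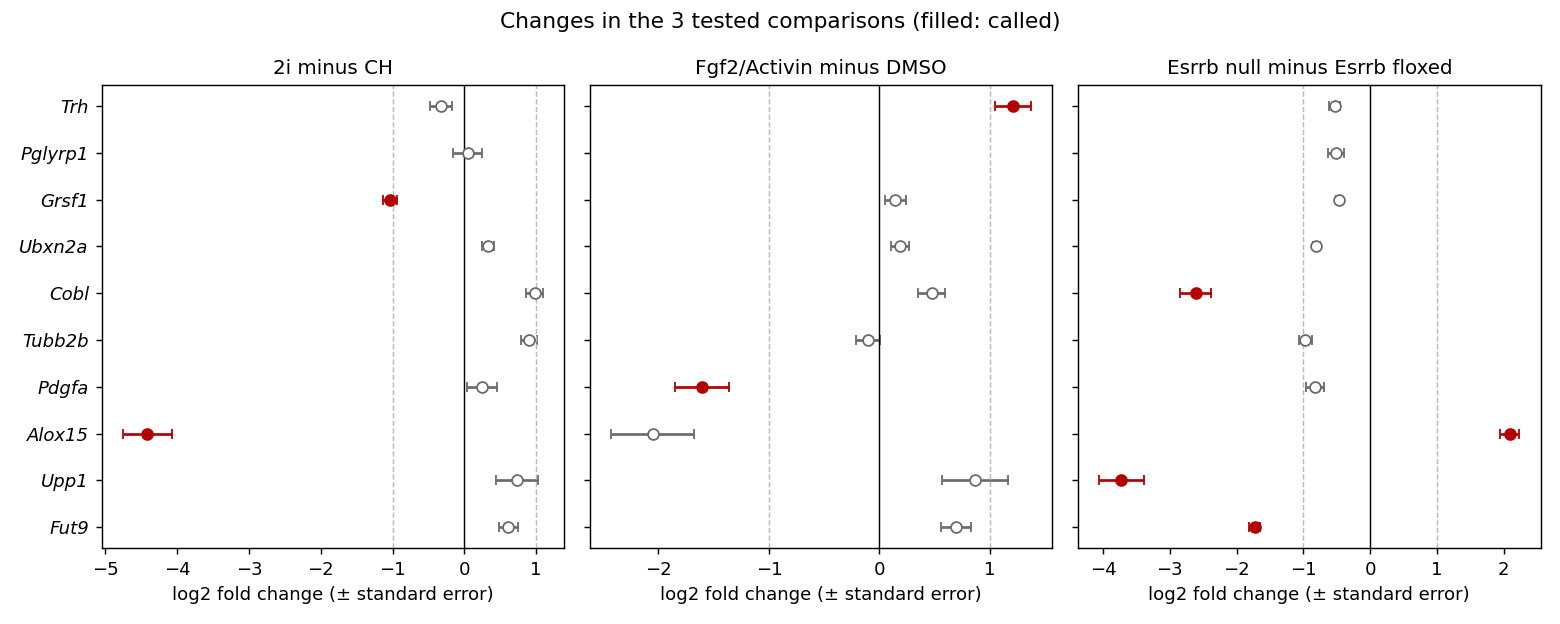
edgeR log2 fold changes of the 10 genes in the tested comparisons, with bars of 1 standard error. Filled points were called (adjusted p under 0.01 and beyond the dashed lines at 1 and -1), open points were not, and Pglyrp1 is left out between Fgf2/Activin and DMSO, where both groups were at 10 counts or fewer. Of the 8 filled points, 4 are in the comparison of Esrrb null with Esrrb floxed cells.

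Upp1 (ENSMUSG00000020407, chr11:9118103-9136170, plus strand of GRCm38) encodes uridine phosphorylase, which cleaves uridine to uracil and a sugar phosphate in pyrimidine salvage. It was at 27.6, 45.2 and 15.9 CPM in DMSO and 69.8, 49.8 and 43.7 CPM in Fgf2/Activin. With CH it was at 112, 101 and 113 CPM and with 2i at 208, 165 and 169 CPM. The samples of 2i all lay above those of CH, but the difference of 0.73 (SE 0.29, adjusted p = 0.189) did not pass. With only the 6 samples compared it was 0.72 (SE 0.11, edgeR adjusted p = 0.0176), also not called. The floxed cells had 50.1, 89.4 and 87.3 CPM and Esrrb null cells 2.83, 8.30 and 6.16 CPM. No null sample came near a floxed one, and Upp1 fell by 3.73 on the log2 scale (SE 0.33, adjusted p = 3.39e-05), a 13.2-fold loss and the largest of the 10 genes. All 3 null samples were also below every wild-type DMSO sample, and the null mean was 19.5% of the DMSO mean.

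Cobl (ENSMUSG00000020173, chr11:12236608-12464960, minus strand) encodes cordon-bleu, which starts actin filaments through its WH2 domains. It had 10.1, 8.23 and 7.82 CPM in DMSO, 13.1, 11.01 and 12.6 CPM in Fgf2/Activin, and 113, 112 and 126 CPM in CH. In 2i it had 197, 251 and 242 CPM, well above CH. The difference of 0.98 (SE 0.12, adjusted p = 0.000852) fell just short of the fold required for a call, and passed it without replicate 3 of CH (1.03), without replicate 1 of 2i (1.08) and without replicate 1 of every group (1.06). In these alternatives and the others run, its adjusted p ranged from 1.02e-12 to 0.00881. In CH, floxed cells had 55.6, 41.2 and 41.5 CPM and null cells 4.65, 9.34 and 8.91 CPM. Cobl thus fell by 2.61 (SE 0.23, adjusted p = 3.24e-05, 6.1-fold), and the null samples overlapped the wild-type DMSO samples.

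Fut9 (ENSMUSG00000055373, chr4:25609332-25800244, minus strand) encodes the fucosyltransferase that builds the Lewis x epitope, known on mouse ES cells as SSEA-1. Its levels were 9.33, 13.3 and 10.04 CPM in DMSO, 15.4, 19.3 and 18.5 CPM in Fgf2/Activin, 46.8, 43.6 and 42.4 CPM in CH and 73.3, 62.2 and 67.6 CPM in 2i. Each of these groups was clear of the next, although neither 2i against CH (0.61, SE 0.13, adjusted p = 0.0181) nor Fgf2/Activin against DMSO (0.69, SE 0.14, adjusted p = 0.0157) was called. Esrrb floxed cells had 70.4, 66.4 and 61.7 CPM and null cells 18.3, 20.5 and 21.8 CPM. Fut9 fell by 1.73 (SE 0.09, adjusted p = 2.44e-06, 3.31-fold) to a level that overlapped Fgf2/Activin and was still 186% of the DMSO mean.

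Upp1, Cobl and Fut9 remained called lower in Esrrb null cells under each of the 13 alternatives run, leaving out single samples or replicate 1 of every group among them. The lines, passages and culture times differ between the wild-type and the Esrrb fl/fl samples, so levels set side by side across them are a description and carry no test.

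Alox15 (ENSMUSG00000018924, chr11:70344152-70352031, minus strand) encodes a lipoxygenase that adds oxygen to arachidonic acid and related fatty acids. In CH it had 147, 114 and 95.9 CPM, and in 2i 7.09, 5.32 and 4.32 CPM. It fell by 4.42 with the Mek inhibitor (SE 0.34, adjusted p = 9.13e-05, 21.4-fold), with no overlap, and did so under each of the 14 alternatives. In Fgf2/Activin it had 0.421, 1.03 and 1.69 CPM, below all samples of DMSO. That difference of -2.05 (SE 0.38) missed the call at an adjusted p of 0.0107, and was called with the replicate number as a block (adjusted p = 0.00534), with DESeq2, with no filter on low counts, without replicate 3 of Fgf2/Activin and without replicate 1 of every group. Over the 14 alternatives its adjusted p ranged from 2.17e-06 to 0.0762.

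The floxed cells had 12.1, 19.9 and 17.7 CPM of Alox15 and Esrrb null cells 66.4, 72.9 and 74.2 CPM. Alox15 was the only one of the 10 genes that rose without Esrrb, by 2.09 (SE 0.15, adjusted p = 1.13e-05, 4.25-fold). It therefore moved in the opposite direction to the other 9 genes in the null cells.

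Markers of the primitive streak moved in the same directions as Alox15 (T, Mixl1, Eomes, Evx1 and Fgf8, summed CPM). The sum was 470 to 710 in CH and 87.1 to 120 in 2i, with 4 of the 5 genes called lower in 2i. It was 77.2 to 98.2 in Esrrb floxed and 439 to 568 in Esrrb null cells, with 4 of 5 called higher. None of the 5 was without counts in any group. Of the 5 genes, 2 were higher in all 6 samples with CH or 2i than in all 6 with DMSO or Fgf2/Activin, and 1 was lower. Beside them, DMSO had 8.96 to 13.99 and Fgf2/Activin 13.5 to 23.4, with 1 of 5 called higher in Fgf2/Activin, where Alox15 was lower. Over all groups the sums of other marker lists were 1.14 to 10.3 for primitive endoderm, 7.83 to 27.6 for blood cells, 2.29 to 49.6 for fibroblasts, 8.22 to 52.04 for trophectoderm and 6.35 to 116 for neural cells. At low levels the primitive endoderm sum moved the same way, from 2.92 to 3.38 in CH to 1.14 to 1.45 in 2i. It was 1.76 to 2.89 in Esrrb floxed and 3.26 to 4.74 in Esrrb null cells, but highest in DMSO. Of these 6 genes 2 were called lower in 2i, and of 3 tested in the null cells 1 was called higher and 1 lower. The part of primitive streak-like or primitive endoderm-like cells in the Alox15 changes was not tested.

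**Figure D3:**
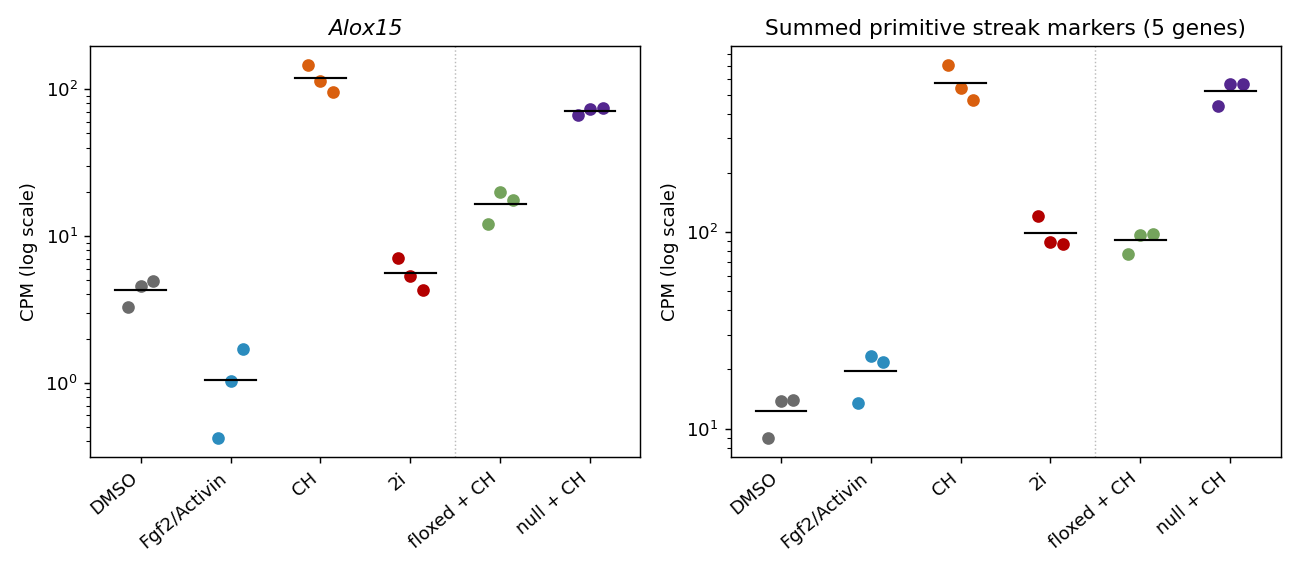
Alox15 (left) and the summed level of 5 primitive streak markers (right) in CPM on log axes. Points are single samples and bars group means, with the dotted line between the wild-type E14 cultures and the Esrrb fl/fl cells. Both are high in CH and Esrrb null cells, and lower in 2i and Esrrb floxed cells, but Alox15 in 2i is near its DMSO level while the marker sum is not.

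Tubb2b (ENSMUSG00000045136, chr13:34126748-34130466, minus strand) encodes a β-tubulin, a building block of microtubules. It had 139, 119 and 123 CPM in CH and 253, 238 and 221 CPM in 2i, against 45.9, 39.6 and 42.2 CPM in DMSO and 46.2, 37.0 and 36.5 CPM in Fgf2/Activin. CH and 2i were apart, with 0.90 between 2i and CH (SE 0.11, adjusted p = 0.00085), under the fold required. In CH, floxed cells had 161, 129 and 131 CPM and null cells 78.9, 68.5 and 69.7 CPM. The difference of -0.97 (SE 0.10, adjusted p = 6.67e-05) was just under the fold and was called without replicate 1 of the null cells, replicate 2 of the floxed cells or replicate 3 of the floxed cells, with values between -0.86 and -1.04 over the samples left out in turn. Of its longest transcript, 61.9% matches Tubb2a or a Tubb2a pseudogene over at least 75 bases at 95% identity, so reads could be shared. Tubb2a itself had 4.25 to 11.1 CPM in the 18 samples.

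Trh (ENSMUSG00000005892, chr6:92242061-92244650, minus strand) encodes the precursor of thyrotropin-releasing hormone. It had 878, 1059 and 1049 CPM in CH and 737, 863 and 792 CPM in 2i, which were all lower but not by a difference that passed (-0.32, SE 0.16, adjusted p = 0.29). This adjusted p ranged over the 14 alternatives from 0.000682, without replicate 1 of every group, to 0.548, and none gave a call. Esrrb floxed cells had 1136, 1052 and 1104 CPM and null cells 869, 732 and 702 CPM. The null cells thus kept 70.0% of the floxed level (-0.53, SE 0.08, adjusted p = 0.000598), and their mean was in the range of wild-type 2i. In DMSO it had 19.4, 20.6 and 24.5 CPM and in Fgf2/Activin 64.0, 45.3 and 41.1 CPM. Trh rose by 1.21 in Fgf2/Activin (SE 0.16, adjusted p = 0.00157). The call was lost without replicate 2 of DMSO (1.18, adjusted p = 0.0103), without replicate 1 of Fgf2/Activin (0.99), without replicate 1 of every group (0.92) and with only the 6 samples compared (1.22), and the adjusted p ranged from 7.93e-10 to 0.0254 over the 14 alternatives.

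Pdgfa (ENSMUSG00000025856, chr5:138976014-138997370, minus strand) encodes the A chain of platelet-derived growth factor, the ligand of Pdgfra. It had 12.4, 7.05 and 7.67 CPM in DMSO and 3.21, 2.89 and 2.92 CPM in Fgf2/Activin. It fell by 1.60 there (SE 0.24, adjusted p = 0.00331), in contrast to Trh. Leaving out any one of the 3 samples of Fgf2/Activin lost the call, with values between -1.30 and -1.76 over the samples left out in turn, as did a fit of the 6 samples alone (-1.59), while without replicate 1 of every group it was kept (-1.36). With CH it had 104, 131 and 141 CPM and with 2i 112, 167 and 168 CPM, which overlapped (0.25, SE 0.21, adjusted p = 0.609). This adjusted p ranged over the 14 alternatives from 0.000309, without replicate 1 of every group, to 0.846, and none gave a call. The floxed cells had 179, 124 and 134 CPM and null cells 91.9, 76.3 and 81.2 CPM, a difference of -0.83 (SE 0.14, adjusted p = 0.000922) below the fold required. Exons of 6330403L08Rik, on the opposite strand, cover 26.1% of the exons of Pdgfa, and reads counted without strand cannot be told apart there. That gene was at 0.361 to 1.13 CPM in DMSO and Fgf2/Activin and at 8.30 to 15.3 CPM in the other groups.

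Pglyrp1 (ENSMUSG00000030413, chr7:18871331-18890459, plus strand) encodes a secreted protein of innate immunity that binds peptidoglycan of bacterial walls. Beside its 2 or 3 counts in DMSO it had 3, 5 and 10 counts in Fgf2/Activin, too few in both groups for a fold change. In CH it had 81.3, 62.8 and 64.2 CPM and in 2i 94.98, 61.5 and 59.1 CPM. These overlapped, and the log2 difference of 0.05 (SE 0.20, adjusted p = 0.948) changed sign with the samples left out, between -0.20 and 0.18. In CH, floxed cells had 40.8, 41.9 and 43.0 CPM and null cells 36.3, 27.3 and 25.9 CPM. The difference of -0.51 (SE 0.12, adjusted p = 0.00637) left the null cells at 71.2% of the floxed level, far above the counts seen in wild-type DMSO.

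Grsf1 (ENSMUSG00000044221, chr5:88659448-88676171, minus strand) encodes a protein that binds G-rich RNA and works in the RNA granules of mitochondria. It had 1186, 907 and 916 CPM in CH and 473, 498 and 496 CPM in 2i. It fell with the Mek inhibitor by 1.04 (SE 0.09, adjusted p = 0.000203), close to the fold required, and was no longer called without replicate 1 of CH (-0.90) or without replicate 1 of every group (-0.87). The adjusted p stayed between 5.77e-20 and 0.00887 over the alternatives. In 2i it remained 4.96 times the DMSO level, unlike Alox15. In DMSO it had 101, 101 and 93.3 CPM and in Fgf2/Activin 112, 112 and 105 CPM. Esrrb floxed cells had 747, 772 and 771 CPM and null cells 552, 572 and 555 CPM, a difference of -0.46 (SE 0.04, adjusted p = 3.03e-05) that was the smallest of the 10 genes in size.

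Ubxn2a (ENSMUSG00000020634, chr12:4879032-4907705, minus strand) encodes an adaptor of p97, the ATPase that pulls ubiquitin-marked proteins out of complexes. It had 31.2, 32.4 and 26.7 CPM in DMSO and 32.7, 36.5 and 34.3 CPM in Fgf2/Activin. In CH it had 155, 140 and 155 CPM and in 2i 196, 184 and 186 CPM, apart from each other but by only 0.33 (SE 0.08, adjusted p = 0.0297). The floxed cells had 143, 147 and 146 CPM and null cells 84.7, 86.7 and 81.6 CPM. The null level of 57.9% of floxed corresponded to -0.80 (SE 0.05, adjusted p = 5.11e-06), under the fold required. A stretch of 28.04% of its longest transcript matches the pseudogene Gm6245, which had at most 3 counts in any sample.

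Set side by side, the 2 comparisons ordered the genes in nearly opposite ways. Cobl, Tubb2b, Upp1, Fut9 and Ubxn2a, the genes with 2i above CH in every sample, were among those with the more negative values upon loss of Esrrb. Trh, Pglyrp1 and Grsf1 had the smallest values there in size, and Alox15 changed most in 2i and in the opposite direction in the null cells. Over the 10 genes Spearman's rho between both log2 fold changes was -0.915 and Pearson's r was -0.828, and without Alox15 rho was -0.883 and r was -0.629. Over the 14535 genes tested in both, rho was -0.302 and r was -0.452. The comparisons share no sample, genes are not independent replicates, and these correlations are given as a description. Esrrb had 367, 288 and 318 CPM in CH and 573, 559 and 535 CPM in 2i, a difference of 0.78 (SE 0.44, adjusted p = 0.396) that was not called. All samples of 2i nevertheless lay above those of CH. The spread behind this SE was estimated over all wild-type groups, and Esrrb varied widely in DMSO, at 30.3, 8.95 and 6.82 CPM.

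**Figure D4:**
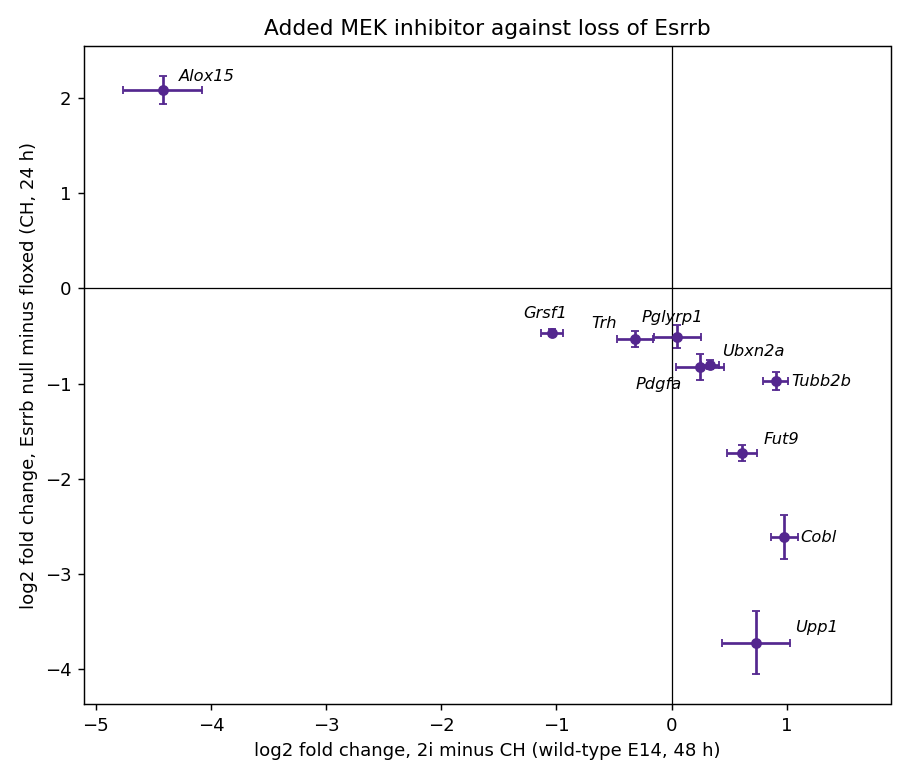
log2 fold change of each gene with the Mek inhibitor added to CH (horizontal axis, wild-type E14, 48 h) and in Esrrb null against Esrrb floxed cells in CH (vertical axis, 24 h), with bars of 1 standard error. All genes but Alox15 lie below 0 on the vertical axis, whatever their sign on the horizontal axis. Trh and Grsf1 lie below 0 on both axes, and Alox15 lies alone at -4.42 and 2.09.

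The levels that remained in Esrrb null cells separate the genes further. Relative to the mean of wild-type DMSO, the null level was 3568% for Trh, 1674% for Alox15, 918% for Pdgfa, 568% for Grsf1, 280% for Ubxn2a, 186% for Fut9, 170% for Tubb2b, 87.5% for Cobl and 19.5% for Upp1. Relative to the floxed level, Trh, Pglyrp1, Grsf1, Ubxn2a, Pdgfa and Tubb2b were at 51.5% to 73.3% in null cells, Fut9 at 30.5%, Cobl at 16.6% and Upp1 at 7.62%.

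Across the 18 samples, the levels of Trh, Pglyrp1, Grsf1, Ubxn2a and Pdgfa had Pearson's r of log2(CPM + 1) between 0.918 and 0.974 for their pairs. Tubb2b and Fut9 were as close to Ubxn2a, at 0.956 and 0.931, and to each other, at 0.922. The lowest values involved Alox15 and Upp1, at -0.224 between them. Among all 13340 genes with a mean of at least 1 CPM, those most like a member were Ntn1 for Pdgfa (r = 0.992), Gjc1 for Ubxn2a (0.993), Ppic for Pglyrp1 (0.991), Ildr1 for Cobl (0.987), Mllt6 for Trh (0.985), Cdx1 for Grsf1 (0.984), Nid1 for Tubb2b (0.984), Dcp2 for Fut9 (0.974) and Pfkp for Upp1 (0.971). Alox15 had the least close neighbours, Pik3c2b at 0.931 and Snai1 at 0.918. The second nearest genes were Csrnp3 (Pdgfa), Phf11d (Ubxn2a), Rasgrp1 (Pglyrp1), Osm (Cobl), Rnft1 (Trh), Cask (Grsf1), Kdm3b (Tubb2b), Jam2 (Fut9) and Adamts9 (Upp1), with r of 0.958 to 0.990. These points share libraries and the split between cultures with and without a Gsk3 inhibitor.

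Partners of the 10 genes in their pathways were counted in the same way. Of 127 genes in 10 lists (one for each member), 110 were tested in the wild-type cultures. With the Mek inhibitor 2 rose and 5 fell, where 0.317% and 1.67% of all genes did. Between Fgf2/Activin and DMSO edgeR called none, where 0.902% of all genes rose and 0.347% fell. At an unadjusted p under 0.05 in edgeR 7 were higher and 11 lower, a threshold at which the share of all genes was not counted. DESeq2 called 1 in each direction. Upon loss of Esrrb, 19 of 103 tested rose and 1 fell, where 12.8% and 3.87% of all genes did.

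Among the partners of Pdgfa, 4 of 7 tested PDGF ligands and receptors rose in Esrrb null cells while Pdgfa itself was lower. Pdgfra, its receptor, was at 2.79 ± 0.568 CPM (SD, n = 3) in null and 0.611 ± 0.255 CPM in floxed cells (log2 fold change 2.16, SE 0.31, adjusted p = 0.000398), and Pdgfrl, a receptor-like protein, at 39.6 ± 3.41 and 5.14 ± 0.274 CPM (2.93, SE 0.10, adjusted p = 5.99e-07). With the Mek inhibitor Pdgfrl fell (-2.37, SE 0.42, adjusted p = 0.00677) and Pdgfc, another ligand, rose from 6.94 ± 1.91 to 22.6 ± 4.24 CPM (1.70, SE 0.25, adjusted p = 0.00231).

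In the arachidonate list 4 of 10 tested rose without Esrrb alongside Alox15, among them the lipoxygenase Alox5 (3.49, SE 0.28, adjusted p = 2.01e-05) and the cyclooxygenase Ptgs2 (2.11, SE 0.35, adjusted p = 0.000912). Alox5 and Ptgs2 were at 0.339 and 0.66 CPM in floxed and 3.92 and 2.90 CPM in null cells. The sizes of both changes thus rest on few floxed counts. The phospholipase Pla2g4a, which releases arachidonic acid, was the 1 gene of that list that fell with the Mek inhibitor (-2.77, SE 0.45, adjusted p = 0.00367), from 0.684 to 0.0967 CPM. Of the proteins that mature peptide hormones such as Trh, carboxypeptidase E (Cpe, 2.83, SE 0.21, adjusted p = 1.3e-05) and the amidating enzyme Pam (2.02, SE 0.07, adjusted p = 5.99e-07) rose in null cells, where Trh was lower.

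Of the actin nucleators, 4 of 16 rose in null cells, led by Lmod1 (4.47, SE 0.33, adjusted p = 1.22e-05) and the Cobl-related Cobll1 (3.47, SE 0.28, adjusted p = 2.13e-05). Lmod1 was at 0.102 CPM in floxed and 2.41 CPM in null cells, and Cobll1 at 0.338 and 3.85 CPM. The sizes of these fold changes thus rest on few floxed counts. The formin Fmn1 rose both in null cells (1.38, SE 0.18, adjusted p = 0.000268) and in 2i (1.36, SE 0.22, adjusted p = 0.00426), where Cobl was lower and higher. Among the tubulins Tubb6 rose (2.02, SE 0.14, adjusted p = 1.04e-05) and Tubb3 fell (-1.56, SE 0.25, adjusted p = 0.000797) in null cells, and Tubb4a fell in 2i from 0.464 to 0.0949 CPM. St3gal6, a sialyltransferase in the list around Fut9, fell in 2i (-3.13, SE 0.45, adjusted p = 0.00195) and rose in null cells (2.20, SE 0.30, adjusted p = 0.000331), the reverse of Fut9. The 13 tested UBX-domain cofactors related to Ubxn2a and the 16 mitochondrial RNA factors related to Grsf1 held no called gene in any comparison, and of the peptidoglycan receptors and the genes of pyrimidine metabolism, 1 each rose in null cells, Nod2 among the former (1.64, SE 0.29, adjusted p = 0.00139).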

How the data were processed

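RNA from 18 samples was sequenced from poly(A) libraries. The deposited values are raw counts per gene, made by the authors with TopHat2 and HTSeq on mm10/GRCm38, with the Ensembl release not given in the sources used here. The kit was directional, but reads were counted without strand. Total counts of 19915222 to 37158661 per sample set the precision, and counting intervals cover counting error only. Counts were fitted with edgeR 4.0.16 (TMM, filterByExpr, quasi-likelihood test, R 4.3.3), the 12 wild-type samples in one fit (16413 genes) and the 6 Esrrb fl/fl samples in another (14893 genes). SE is the size of the log2 fold change divided by the square root of F. The fits were tested on simulated data. Near-identical copies (75 bases or more, 95% identity) were sought with blastn 2.17.0. DESeq2 1.42.0, another scaling, other filters, a replicate block, fits of 6 samples and left-out samples were the alternatives.

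The 10 genes, the marker lists and the partner lists were chosen with earlier results of these data known. The text names all 10 genes, Esrrb, the 2 genes most alike to each, and up to 3 called genes a partner list by size of change, the last 2 kinds at a mean of at least 1 CPM over all samples of the fit (or all 18 samples for likeness), so a gene can be lower in the groups compared. Markers and genes that share sequence or exons with the 10 are named beside the results they touch. Samples with the same replicate number deviated together from their group means (correlations of 0.724 to 0.857, 0.668 to 0.85 and 0.403 to 0.574 in the tested comparisons). Between samples of different replicate number the correlations were -0.828 to 0.764, -0.785 to 0.653 and -0.522 to 0.476. The main fits held the group only, so their p-values do not use any pairing by replicate number. The replicate number entered only as a block in an alternative.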

Additional observations from a re-analysis of the deposited data

How the results depend on the processing

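Of the fold changes of the 10 genes, 128 of 139 values under an alternative kept their direction and their side of the threshold for 2i against CH, 125 of 138 for Fgf2/Activin against DMSO and 121 of 130 for Esrrb null against floxed. The 4 calls upon loss of Esrrb were kept under every alternative run. The replicate block changed 1 call, Alox15 in Fgf2/Activin (adjusted p = 0.00534 in edgeR), and no other call of the 10 genes. Pglyrp1 in 2i against CH changed sign without replicate 2 of CH (-0.017), replicate 3 of CH (-0.014), replicate 1 of 2i (-0.20) and replicate 1 of every group (-0.071), and reached 0.178 without replicate 1 of CH. It gave no value with at least 10 counts in every sample.

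For 2i against CH, edgeR called 52 genes higher and 274 lower. The counts were 107 and 490 with DESeq2, 138 and 534 with the replicate block, 28 and 72 with only the 6 samples and 214 and 554 without replicate 1 of every group. With at least 10 counts in every sample 182 were lower, and with no minimum fold 136 were higher. Without single samples they were 17 to 45 and 124 to 245, and moved by more than 1.5 times without replicate 2 or 3 of CH or any replicate of 2i. Of the 10 genes, 2 were higher with no minimum fold, 1 was higher and 1 lower without replicate 1 of every group, and 0 to 1 were higher and 1 to 2 lower without single samples.

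For Fgf2/Activin against DMSO, the main counts were 148 higher and 57 lower. They were 248 and 126 with DESeq2, 275 and 149 with the replicate block, 62 and 25 with only the 6 samples and 318 and 181 without replicate 1 of every group, and 101 were lower with no minimum fold. Without single samples they were 84 to 124 and 28 to 47, and moved by more than 1.5 times without replicate 2 or 3 of DMSO or of Fgf2/Activin. Of the 10 genes, 2 were lower with no filter, DESeq2, the block or without replicate 1 of every group, where 0 were higher. With only the 6 samples 0 were called in either direction, and without single samples 0 to 1 were.

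For Esrrb null against floxed, 1909 were higher and 576 lower, and with no minimum fold 3664 and 2957, with 9 of the 10 genes lower. Without single samples they were 1701 to 1930 and 482 to 596, with 3 to 4 of the 10 genes lower and 1 higher. The causes of these shifts were not tested. The Pglyrp1 counts of 2 to 10 in DMSO and Fgf2/Activin allow no comparison between these groups.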

Other observations

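The 2 groups in CH without a deletion, wild-type E14 cells after 48 h and Esrrb floxed cells after 24 h, did not share a level for every gene. The floxed mean was 13.9% of the wild-type mean for Alox15, 39.4% for Cobl, 60.4% for Pglyrp1, 69.5% for Upp1 and 76.1% for Grsf1, and 97.01% to 149% for Ubxn2a, Trh, Tubb2b, Pdgfa and Fut9. Line, passage and culture time differ together between these groups and cannot be told apart.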
